A study of Homo sapiens with 2 samples.

Results

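The genes of protein folding and stress in the endoplasmic reticulum (ER) were examined in 1 library of live and 1 library of processed human Stage 6 cells. The set holds 41 genes out of 55797 in the deposited tables, chosen by gene symbol and joined between the libraries by gene identifier. Each symbol matched 1 row in each library. The list was set by symbol and not by a cutoff on a measured value, but earlier results of these data were known. All 41 reached at least 1 FPKM (fragments counted on a gene, scaled to its length and to the size of the library) in at least 1 of the libraries, as did 17326 genes in all. Both libraries come from the H1 line of human embryonic stem cells, an established line here differentiated stepwise to Stage 6, a mixed culture in which some cells express insulin. From live cells, neither fixed nor sorted, RNA was taken directly with the RNeasy kit. Processed cells were the other portion of the same culture. They went through MARIS, in which cells are fixed in 4% PFA, permeabilized with saponin, stained with antibodies, sorted with every cell collected, and digested with protease before RNA isolation. With 1 library per condition, no difference below has a replicate check, and no test between the conditions was possible.

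Proteins that are secreted or placed in membranes enter the ER through the Sec61 channel, lose their signal peptide, and fold with the help of chaperones and disulphide isomerases. Proteins that fail to fold are returned to the cytosol and degraded. When unfolded protein accumulates, the sensors ATF6, IRE1 (gene ERN1) and PERK (gene EIF2AK3) start the unfolded protein response, which raises chaperone transcription through ATF6 and spliced XBP1 and slows translation while favouring ATF4. Endocrine cells of the pancreas make large amounts of prohormone, and insulin-producing cells are known for a high folding load and for their dependence on PERK.

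The ER genes spanned a wide range of levels in both libraries, and most were slightly lower in processed cells. HSP90B1 had the highest FPKM of the set in both, with 331 in live and 358 in processed cells. ERN1 had the lowest, with 1.29 and 0.492 FPKM. The median over the set was 34.4 FPKM in live and 29.6 in processed cells, against 8.46 and 8.03 FPKM over all 17326 genes with at least 1 FPKM. At least 100 FPKM was reached by 11 members in live and by 8 in processed cells, and 8 members in live and 10 in processed cells lay below 10 FPKM. Together the 41 genes made up 0.540% of summed FPKM in live and 0.501% in processed cells.

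Of the 41 genes, 34 were lower and 7 were higher in processed cells on the log2 scale, where each value is log2 of (processed FPKM + 1) over (live FPKM + 1). Over all genes tested, 58.3% were lower and 41.7% higher. The median log2 ratio was -0.22 for the members and -0.09 for all genes, with the middle 50% of members between -0.32 and -0.06. Among genes with at least 10 FPKM in a library, the medians were -0.16 for 33 members and -0.09 for all 8515 genes, so the gap was smaller. The split depends on scaling. After division of the processed values by the median ratio over genes, 0.932, 25 members were lower and 16 higher. Of all genes, 49.8% were then lower. The median log2 ratio of members became -0.12, while the median of all genes moved from -0.09 to 0.00. The 9 members whose sign turned under that scaling were ATF4, CALR, DERL1, ERO1LB, HERPUD1, MANF, SPCS1, SSR2 and SYVN1, all with small ratios.

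No member differed by more than 2-fold on this scale, whereas 12.8% of all genes did. Many of the latter have low FPKM, and among the 8515 genes with at least 10 FPKM in a library the share was 5.01%, with 0 of the 33 members at that level. The ratio understates the difference of genes with low FPKM. Without the pseudocount, 3 members were more than 2-fold lower in processed cells, namely ERN1, EIF2AK3 and EDEM1, while 19.3% of all genes were past 2-fold in either direction. The authors' bounds on FPKM, whose level is not given in the sources used here, did not overlap between the libraries for 29 members (71.8% of all genes). Of these, 27 were lower in processed cells (43.7% of all genes) and 2, HSP90B1 and DNAJB11, were higher (28.1% of all genes). After division by the median ratio, 22 lower and 6 higher members had separate bounds. The shares of all genes with separate bounds under that scaling are not given here, so this split has no background beside it. Such bounds cover the estimate within a library and not the spread between cultures. Their width on either side was between 0.999% and 18.4% of the FPKM in live and between 1.08% and 18.7% in processed cells.

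**Figure D1:**
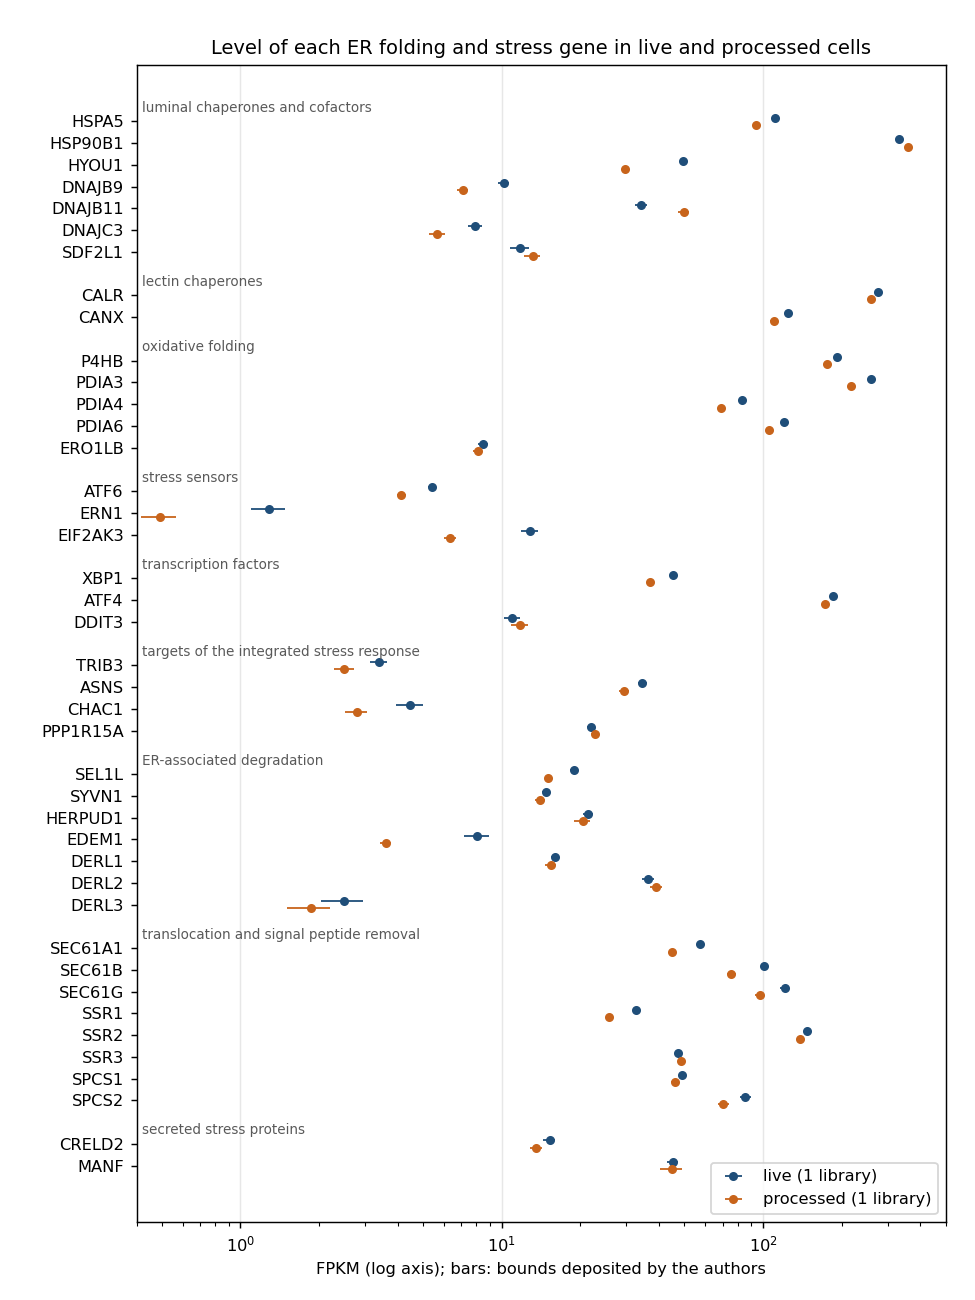
FPKM of the 41 genes (log axis) in the live library (blue) and the processed library (orange), grouped by role, with bars for the bounds given by the authors. The levels span from 0.492 FPKM (ERN1, processed) to 358 FPKM (HSP90B1, processed), and for most genes the orange point lies slightly to the left of the blue one.

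The promoters of these genes are known for the ER stress response element, through which ATF6 and XBP1 raise chaperone transcription, and its matches are shown here because they are the feature that ties the chaperones to the stress sensors. Promoter windows of 300 bases (250 before and 50 after the annotated start) came from RefSeq on GRCh38.p14 and were found for 37 members, ERO1LB under its newer symbol ERO1B. PDIA3, DERL1, DERL3 and SPCS1 had no window in the table. The element was searched on both strands as CCAAT and CCACG with 9 bases between them. It was found in 8 of the 37 members (21.6%), compared with 27 of all 35116 windows (0.0769%), or 25 of 27305 genes (0.0916%). The members are HSPA5, HSP90B1, PDIA6, CALR, CANX, XBP1, ERO1LB and CRELD2, with a pair of matches in HSP90B1. Their sequences follow, each read along the strand of the match with the pairs of 5 bases in capitals, and placed on GRCh37 by exact match of the window.
HSPA5 (chr9:128003665-128003693, minus strand): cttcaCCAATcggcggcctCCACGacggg
HSP90B1 (chr12:104323989-104324017, plus strand): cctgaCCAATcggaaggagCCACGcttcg
HSP90B1 (chr12:104324094-104324122, minus strand): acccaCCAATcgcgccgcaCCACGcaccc
PDIA6 (chr2:10952974-10953002, minus strand): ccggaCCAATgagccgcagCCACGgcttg
CALR (chr19:13049193-13049221, minus strand): accgaCCAATgatggtcgaCCACGcgtgg
CANX (chr5:179125774-179125802, plus strand): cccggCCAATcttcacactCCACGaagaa
XBP1 (chr22:29196586-29196614, minus strand): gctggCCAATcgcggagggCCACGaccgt
ERO1LB (chr1:236445478-236445506, plus strand): ggcggCCAATgaggcgggaCCACGcgggc
CRELD2 (chr22:50312197-50312225, minus strand): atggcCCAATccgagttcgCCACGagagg

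The second form of the element, ATTGG and CCACG with 1 base between them, was found in 3 members (8.11%). It was found in 19 of all windows (0.0541%), or 0.0696% of genes. SDF2L1 and HERPUD1 held 1 match each and HYOU1 held 2.
SDF2L1 (chr22:21996398-21996418, minus strand): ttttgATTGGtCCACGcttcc
HYOU1 (chr11:118927980-118928000, plus strand): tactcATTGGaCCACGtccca
HYOU1 (chr11:118928086-118928106, plus strand): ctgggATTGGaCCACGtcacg
HERPUD1 (chr16:56965932-56965952, plus strand): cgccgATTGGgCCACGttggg
The core TGACGTG, bound by XBP1 and ATF6, was found in HYOU1, SEC61A1 and SSR3 (8.11%). It was found in 1.97% of all windows, or 2.40% of genes. In HYOU1 it overlaps the second of the matches above on the other strand. The amino acid response element was searched only as TGATG and AAT with 1 base between them. This exact form was in none of the 37 members' windows and in 0.991% of all windows. Sites with other letters, or outside the windows, could not be found by this search. Whether the targets of ATF4 hold the element was therefore not tested.

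HSPA5, which encodes the chaperone BiP, is the classic target of the element. The 250 bases before its annotated start on GRCh37 (chr9:128003623-128003872, minus strand) read as follows, with the exact match in capitals, 66 to 48 bases before the start.
HSPA5: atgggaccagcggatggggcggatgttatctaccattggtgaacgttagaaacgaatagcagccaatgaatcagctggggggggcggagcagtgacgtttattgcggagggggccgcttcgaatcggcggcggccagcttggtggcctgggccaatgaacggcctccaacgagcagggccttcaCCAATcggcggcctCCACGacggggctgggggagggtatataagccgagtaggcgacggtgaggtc

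**Figure D2:**
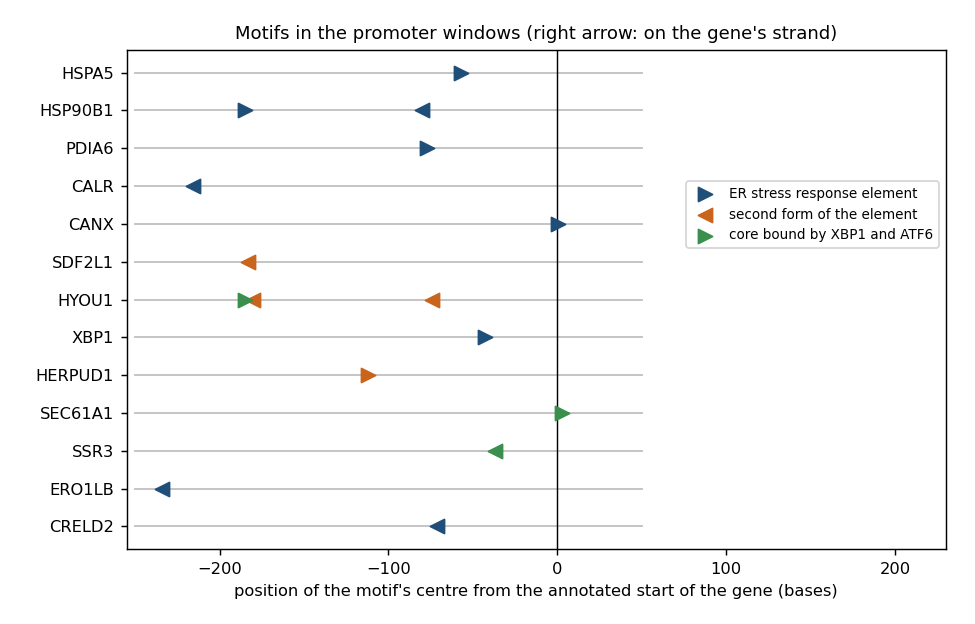
Position of each motif match (bases from the nearest annotated start, marked by the vertical line) in the promoter windows of the 13 members that hold one; grey lines are the windows and arrows give the strand. The matches of HSP90B1 lie on opposite strands, and those of CANX and SEC61A1 reach across the start.

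The 11 members with either form of the element ranged from 8.47 FPKM (ERO1LB) to 331 FPKM (HSP90B1) in live cells. The median log2 ratio of these members was -0.16, and 9 of them were lower in processed cells (58.3% of all genes). Of the 26 members whose windows held neither form, 21 were lower, with a median of -0.29. A match describes the letters of a window, and binding in these cells was not measured.

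The luminal chaperones bind unfolded proteins inside the ER, and their 7 genes did not move as a block. HSP90B1, encoding GRP94 (chromosome 12, 104323885 to 104347423 on GRCh37), had 331 FPKM in live (bounds 327 to 334) and 358 in processed cells (353 to 363), a log2 ratio of 0.11. HSPA5 (chromosome 9, 127997132 to 128003609) had 112 FPKM in live (110 to 113) and 93.7 in processed cells (92.6 to 94.8), a log2 ratio of -0.25. The order of these abundant partners was the same in both libraries, and the ratio of HSP90B1 to HSPA5 FPKM was 2.97 in live and 3.82 in processed cells.

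HYOU1, which releases nucleotide from BiP, had the lowest log2 ratio of the chaperones. Its FPKM was 49.3 in live (47.9 to 50.7) and 29.6 in processed cells (29.0 to 30.3), a log2 ratio of -0.71 that lay below all but 2.03% of the 2214 genes with a mean of 30 to 100 FPKM. An overlapping gene on the opposite strand differed the other way. This gene, RP11-110I1.6, is annotated as a lncRNA, and its level went from 1.54 FPKM in the live library to 21.3 FPKM in the processed one. The FPKM difference was -19.7 for HYOU1 and 19.7 for RP11-110I1.6. FPKM is scaled to the length of each gene, so these differences are not fragment numbers. The counting is not stated to use strand, and how reads were assigned within this pair was not tested.

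DNAJB11, a cochaperone of BiP, had the highest log2 ratio of the whole set. Its FPKM was 34.1 in live (32.4 to 35.9) and 49.7 in processed cells (47.3 to 52.1), a log2 ratio of 0.53, above 94.4% of the genes of its expression class. It shares its locus (chromosome 3, 186285192 to 186315061) with TBCCD1 on the opposite strand, which had 4.45 FPKM in live and 2.06 in processed cells. The other J-domain cochaperones had negative log2 ratios. DNAJB9 had 10.2 FPKM in live and 7.08 in processed cells (-0.47), and DNAJC3, an inhibitor of PERK that also acts on BiP clients, had 7.92 and 5.65 FPKM (-0.42). SDF2L1, a partner of DNAJB11, had 11.7 and 13.1 FPKM with overlapping bounds.

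The lectin chaperones calreticulin (CALR) and calnexin (CANX) hold glycoproteins while they fold, calreticulin in the lumen and calnexin in the membrane. CALR had 274 FPKM in live (271 to 277) and 259 in processed cells (256 to 262), a log2 ratio of -0.08 that turned to 0.02 after scaling by the median ratio. A lncRNA on the strand opposite to CALR, CTC-425F1.4, had 13.6 FPKM more in processed cells, and CALR itself had a difference of -15.3 FPKM. How reads were assigned within this pair was not tested. CANX had 125 FPKM in live (123 to 126) and 110 in processed cells (107 to 113), a log2 ratio of -0.18. CALR stayed at a little over 2 times the FPKM of CANX, at 2.201 times in live and 2.35 times in processed cells.

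The disulphide isomerases and their oxidase were all lower in processed cells by small amounts (58.3% of all genes were lower). With separate bounds, 4 of 5 were lower (43.7% of all genes), and the median log2 ratio was -0.18. PDIA3, which works with the lectin chaperones, was the most abundant, at 259 FPKM in live (254 to 264) and 216 in processed cells (212 to 220), a log2 ratio of -0.26. P4HB, the classical protein disulphide isomerase, had 192 and 176 FPKM, PDIA6 had 120 and 105 FPKM, and PDIA4 had 82.7 and 69.2 FPKM. The log2 ratios of these 3 were -0.13, -0.18 and -0.25. ERO1LB, the ER oxidase that is abundant in pancreatic islets, was far lower, at 8.47 FPKM in live (8.11 to 8.83) and 8.09 in processed cells (7.76 to 8.42), with overlapping bounds and a sign that turned after scaling by the median ratio. P4HB and PDIA6 each overlap a gene that was over 2-fold higher in processed cells, and PDIA3 has copies elsewhere in the genome that may share its reads, so these 3 values are less certain.

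The 3 sensors were expressed at low levels and had the lowest median log2 ratio of all roles, -0.62. That median was -1.02 without the pseudocount. All 3 were lower in processed cells with separate bounds (43.7% of all genes), and their sign was the same under both scalings tried. EIF2AK3, encoding PERK (chromosome 2, 88856259 to 88927094), had 12.8 FPKM in live (11.9 to 13.8) and 6.35 in processed cells (5.99 to 6.70), a log2 ratio of -0.91, below all but 6.38% of the 4925 genes with a mean of 3 to 10 FPKM. ERN1, encoding IRE1 (chromosome 17, 62120353 to 62207504), had 1.29 FPKM in live (1.101 to 1.48) and 0.492 in processed cells (0.417 to 0.566). Its log2 ratio was -0.62 with the pseudocount and -1.39 without it. ATF6 (chromosome 1, 161736084 to 161933860) had 5.40 FPKM in live (5.23 to 5.58) and 4.13 in processed cells (3.97 to 4.29), a log2 ratio of -0.32. The FPKM of EIF2AK3 was 2.38 times that of ATF6 in live and 1.54 times in processed cells.

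**Figure D3:**
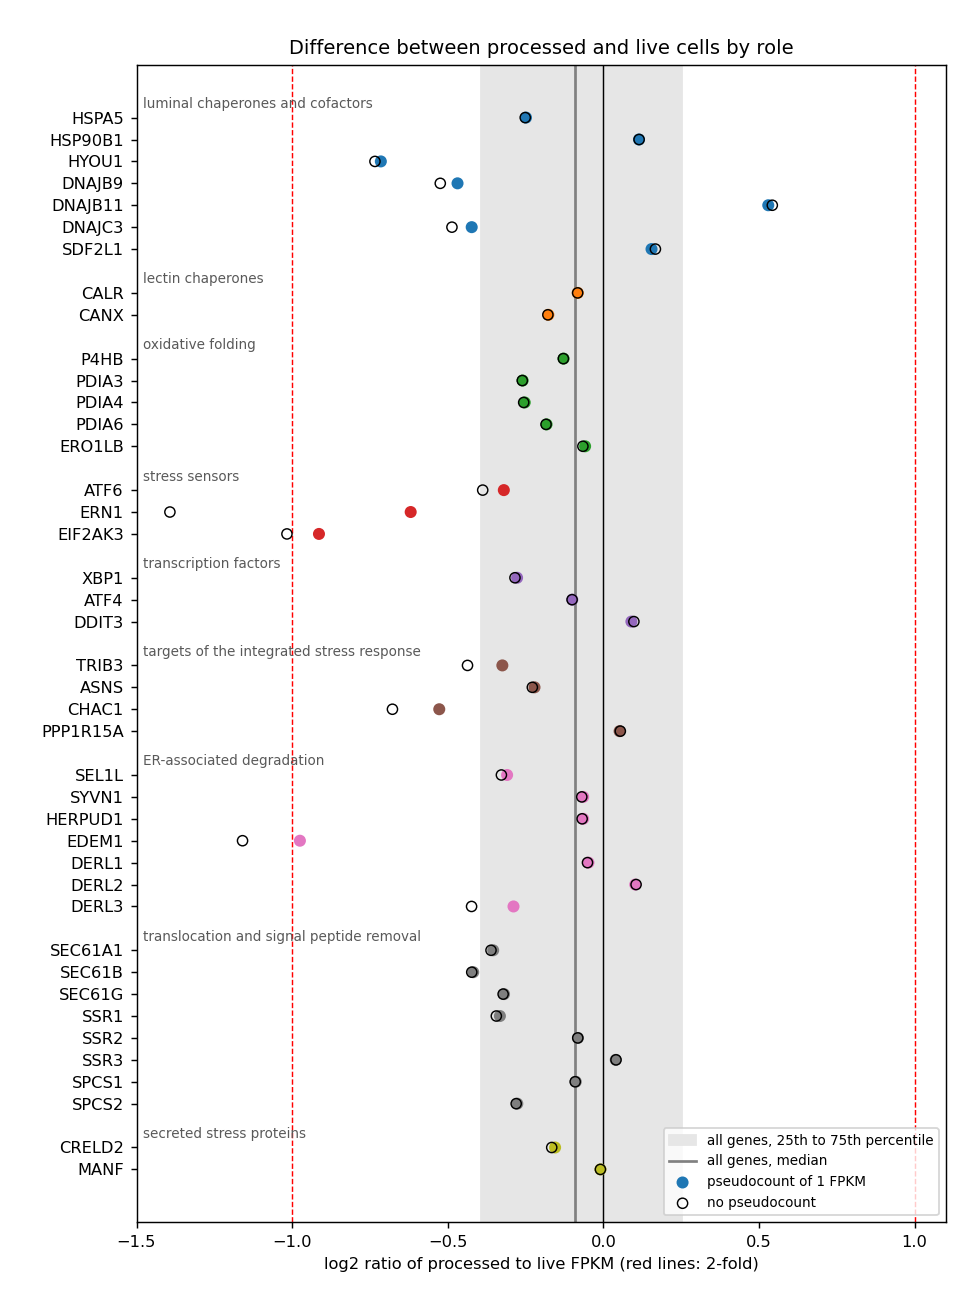
Log2 ratio of processed to live FPKM for each gene, by role, with a pseudocount of 1 FPKM (filled) and without one (open). The grey band spans the 25th to 75th percentile of all 17326 genes, and only ERN1, EIF2AK3 and EDEM1 cross a red 2-fold line, in each case without the pseudocount.

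The fragments behind the sensors were estimated from the FPKM itself. In genes with a single annotated transcript, low FPKM was multiplied by transcript length less a fixed allowance for fragment length. The most frequent product within a chosen window was taken as 1 fragment, so the unit rests on that window and allowance. From this unit and the length of the canonical transcript, ERN1 had about 994 fragments in live and 354 in processed cells, and EIF2AK3 had about 5588 and 2580. Genes with several transcripts make such numbers approximate.

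The transcription factors of the response stood at very different levels. ATF4, whose translation PERK favours, had 185 FPKM in live (182 to 187) and 172 in processed cells (170 to 175), a log2 ratio of -0.10 that was 0.00 after scaling by the median ratio. XBP1, whose mRNA is spliced by IRE1, had 45.1 FPKM in live (43.9 to 46.3) and 37.01 in processed cells (35.9 to 38.1), a log2 ratio of -0.28. The values are per gene, so spliced and unspliced XBP1 are not separated. DDIT3, encoding CHOP, a factor linked to cell death under prolonged ER stress, was low at 10.9 FPKM in live (10.2 to 11.7) and 11.7 in processed cells (10.9 to 12.6), with overlapping bounds. DDIT3 had 0.0981 times the FPKM of HSPA5 in live and 0.125 times in processed cells. It overlaps MARS on the opposite strand, which had 83.5 FPKM in live and 79.2 in processed cells. How reads were assigned between DDIT3 and MARS was not tested.

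Of the 4 targets of ATF4 and CHOP, 3 were lower in processed cells with separate bounds (43.7% of all genes). The bounds of the other overlapped. CHAC1, which degrades glutathione, had 4.46 FPKM in live (3.93 to 4.98) and 2.79 in processed cells (2.52 to 3.06), a log2 ratio of -0.53. TRIB3, a pseudokinase, had 3.38 and 2.50 FPKM, a log2 ratio of -0.32. ASNS, asparagine synthetase, was the most abundant target, at 34.4 FPKM in live (33.1 to 35.8) and 29.4 in processed cells (28.1 to 30.7), a log2 ratio of -0.22. PPP1R15A, encoding GADD34, which restores translation, had 21.9 FPKM in live (21.2 to 22.5) and 22.7 in processed cells (22.0 to 23.4), with overlapping bounds and a log2 ratio of 0.05.

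Among the genes of ER-associated degradation, EDEM1 and SEL1L were lower in processed cells with separate bounds (43.7% of all genes). The bounds of the other 5 overlapped. EDEM1, which takes misfolded glycoproteins out of the folding cycle (chromosome 3, 5229331 to 5261642), had the lowest log2 ratio of the set with the pseudocount, and ERN1 had it without. Its FPKM was 8.05 in live (7.16 to 8.94) and 3.60 in processed cells (3.43 to 3.78), a log2 ratio of -0.97 with the pseudocount and -1.16 without it. The value lay below all but 5.26% of the genes of its expression class. SEL1L, the adaptor of the ubiquitin ligase SYVN1, had 18.9 FPKM in live (18.3 to 19.6) and 15.1 in processed cells (14.8 to 15.4), a log2 ratio of -0.31.

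SYVN1 itself had 14.7 and 14.1 FPKM, and HERPUD1, a component of the same complex, had 21.4 and 20.4 FPKM. The derlins, membrane proteins of the exit route, had 15.9 and 15.4 FPKM (DERL1), 36.2 and 39.0 FPKM (DERL2), and 2.49 and 1.85 FPKM (DERL3) in live and processed cells. DERL2, with the highest FPKM of the role, had bounds of 34.4 to 38.1 in live and 36.9 to 41.02 in processed cells, and its log2 ratio of 0.10 was the highest of the role. The order of the derlins was the same in both libraries. SYVN1 overlaps FAU on its own strand, with 287 FPKM in live and 286 in processed cells. DERL3 overlaps SMARCB1 on the opposite strand, with 100 and 91.6 FPKM. How reads were assigned within these pairs was not tested.

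The genes of translocation and signal peptide removal were lower in processed cells in 7 of 8 cases (58.3% of all genes). In 6 cases the gene was lower with separate bounds (43.7% of all genes). The median log2 ratio of the role was -0.30. All 3 subunits of the Sec61 channel were among the lower ones. SEC61B had 101 FPKM in live (97.8 to 105) and 75.5 in processed cells (72.5 to 78.5), the lowest log2 ratio of the role at -0.42 and below all but 9.62% of the genes of its class. SEC61G had 121 FPKM in live (117 to 126) and 96.9 in processed cells (92.8 to 101). SEC61A1, the pore itself, had 57.6 FPKM in live (56.7 to 58.5) and 44.8 in processed cells (43.7 to 46.0). The proportions among the subunits stayed similar, since SEC61G had 2.10 times the FPKM of SEC61A1 in live and 2.16 times in processed cells.

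The subunits of the translocon-associated protein complex were less uniform. SSR2 was the most abundant gene of the role, at 147 FPKM in live (144 to 150) and 138 in processed cells (134 to 143), a log2 ratio of -0.08 that turned to 0.02 after scaling by the median ratio. SSR1 had 32.7 and 25.8 FPKM, a log2 ratio of -0.33. SSR3 had 47.4 FPKM in live (46.1 to 48.6) and 48.7 in processed cells (47.4 to 49.99) and was the only gene of the role with a positive log2 ratio as deposited, 0.04. The signal peptidase subunits SPCS1 and SPCS2 had 49.0 and 85.6 FPKM in live and 46.0 and 70.5 FPKM in processed cells, with separate bounds for SPCS2 alone. SPCS2 has an expressed pseudogene at 16.7% of its FPKM in live and 14.9% in processed cells, and SSR1 overlaps a pseudogene on its own strand.

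Of the 2 secreted stress proteins, 1 had separate bounds (71.8% of all genes). MANF, a trophic factor of the ER that supports beta cells, had 45.0 FPKM in live (42.9 to 47.2) and 44.7 in processed cells (40.5 to 49.0). CRELD2 had 15.2 FPKM in live (14.4 to 16.0) and 13.6 in processed cells (12.9 to 14.3), a log2 ratio of -0.16.

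The order of the genes was largely kept. The 7 most abundant members, from HSP90B1 to CANX, and the 4 least abundant, from CHAC1 to ERN1, held the same places in both libraries. DNAJB11 moved from place 22 to place 14, and HYOU1 from place 15 to place 21. Of the 40 pairs of neighbours in the order, 18 had overlapping bounds in live and 18 in processed cells, so that those neighbours cannot be ranked.

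**Figure D4:**
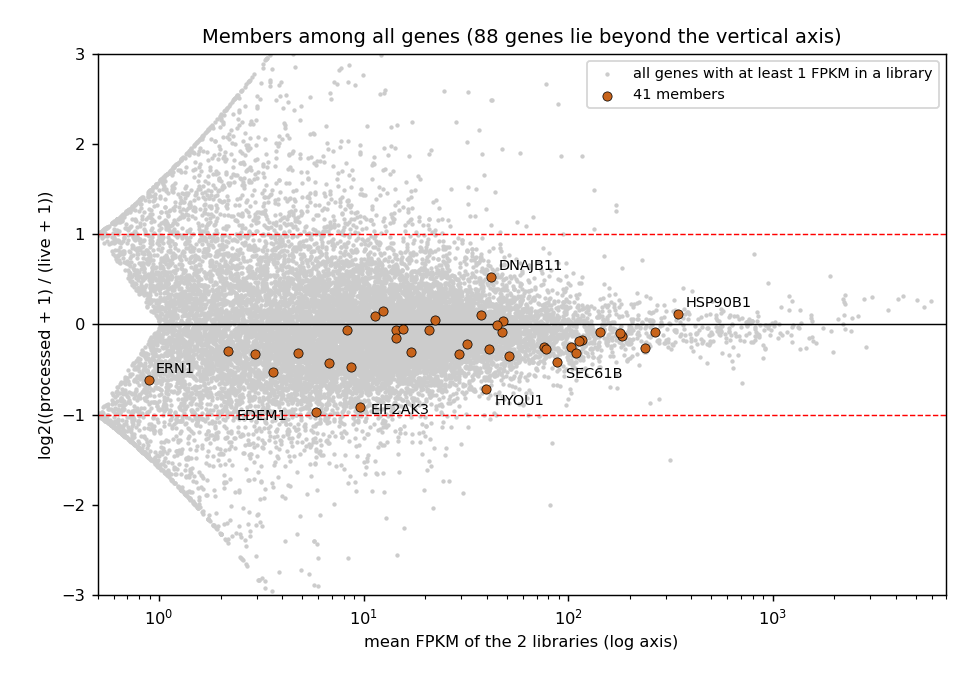
Log2 ratio (processed over live, pseudocount of 1 FPKM) against mean FPKM of both libraries for all genes with at least 1 FPKM in a library (grey) and the 41 members (orange). All members lie between the red 2-fold lines, with EDEM1 and EIF2AK3 next to the lower one and DNAJB11 highest.

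The log2 ratio was lower for members with long transcripts. Across the 41 genes, Spearman's rho between the length of the canonical transcript and the log2 ratio was -0.34, and across the 38 with a mean of at least 3 FPKM it was -0.31. Across 11029 protein-coding genes with a mean of at least 3 FPKM it was -0.19. The log2 ratio was also lower for members with lower FPKM, with a rho of 0.32 between level and ratio. Genes share libraries and are not replicates, so these values are descriptions. In these protein-coding genes, all with a mean of at least 3 FPKM, the median log2 ratio went from 0.01 below 1000 nt to -0.18 between 4000 and 8000 nt and -0.22 above. Members were taken at any level, and ERN1 lies below 3 FPKM. Members from 4000 to 8000 nt, which include EDEM1 (6113 nt), EIF2AK3 (4536 nt), ERN1 (7895 nt) and HYOU1 (4599 nt), had a median of -0.32, with 9 of 11 lower, where 69.8% of the protein-coding genes of that class were lower. SEC61G and SEC61B, with the shortest transcripts of the set (425 and 564 nt), did not follow this order. The parts of transcript length and level in the differences were not tested.

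**Figure D5:**
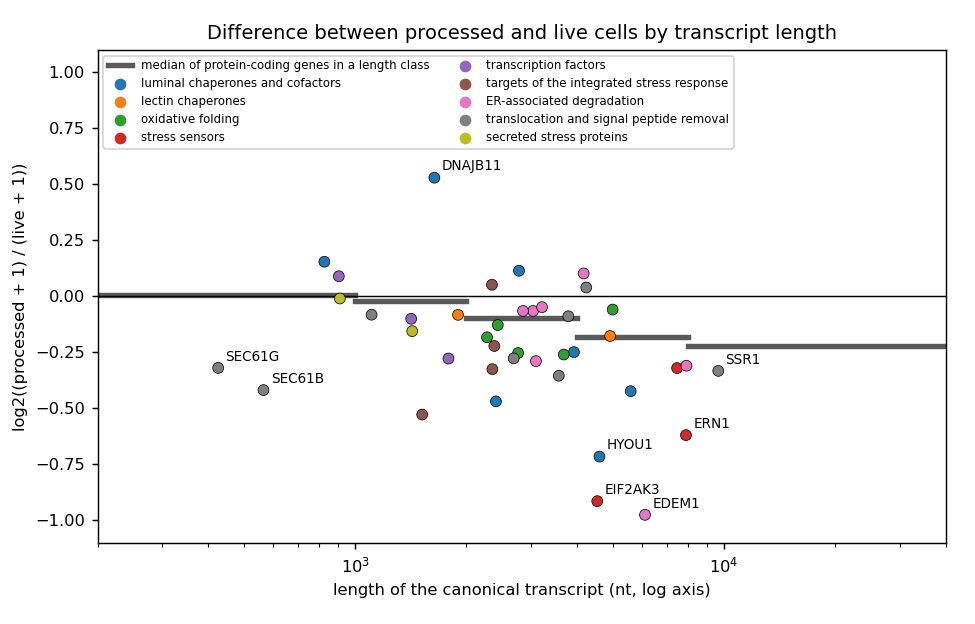
Log2 ratio (processed over live) against the length of the canonical transcript in nt (log axis) for the 41 members, coloured by role, with the median of protein-coding genes in each length class as dark bars. EDEM1, EIF2AK3, HYOU1 and ERN1 lie well below the bar of their class, and SEC61G and SEC61B lie below it at the short end. The bars cover genes with a mean of at least 3 FPKM, a level that ERN1 does not reach.

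A wider list of 73 other genes of the same pathway had shares close to those of all genes. All reached 1 FPKM in a library, 43 (58.9%) were lower and 30 (41.1%) higher in processed cells, and the median log2 ratio was -0.05. Bounds were separate for 33 lower genes (45.2%) and 16 higher genes (21.9%), against the 43.7% and 28.1% of all genes given above. ATF6B, the paralog of ATF6, was listed at 0 FPKM in processed cells and at 19.0 FPKM in live cells, and was the only gene of the list past 2-fold with the pseudocount. Its bounds were 18.1 to 19.9 in live, and both were listed as 0 in processed cells. Whether ATF6B was absent from processed cells or not quantified there was not tested. Without the pseudocount MBTPS2, the site-2 protease that activates ATF6, was also past 2-fold, at 4.26 FPKM in live and 1.70 in processed cells (-1.33). The next lowest log2 ratios among genes with at least 10 FPKM were those of the disulphide reductase DNAJC10, with 43.99 FPKM in live and 25.9 in processed cells (-0.74), and the oxidase ERO1L, with 34.1 and 22.1 FPKM (-0.61). The highest were those of TXNDC12, a thioredoxin-like protein of the ER, with 26.7 and 41.9 FPKM (0.63), SIL1, a nucleotide exchange factor of BiP, with 14.8 and 23.4 FPKM (0.62), and the J-domain protein DNAJC1, with 13.8 and 19.1 FPKM (0.44).

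The cultures held several secretory cell types, and these values are sums over them, so fewer cells of a type and less RNA per cell cannot be told apart. Summed FPKM of 8 pancreatic endocrine markers was 2310 in live and 2301 in processed cells, with chromogranin A (CHGA) highest at 1794 and 1741 FPKM. The sum of 5 hepatic markers was 2449 and 2715 FPKM, led by SERPINA1 at 1496 and 1579 FPKM, and none of the 5 was lower in processed cells. Pancreatic progenitor markers (4 genes, led by SOX9) summed to 197 and 191 FPKM, and mesenchymal markers (5 genes, led by COL1A1) to 83.7 and 83.0 FPKM. Single genes differed more than these sums. CHGA made up most of the endocrine sum. Of the endocrine markers 4 of 8 were lower, with NKX2-2 at 7.68 FPKM in live and 6.01 in processed cells. INS was among the higher ones, at 98.3 and 121 FPKM. Of the progenitor markers 2 of 4 were lower, with ONECUT1 at 31.2 FPKM in live and 17.4 in processed cells. Of the mesenchymal markers 3 of 5 were lower, with COL1A1 at 31.9 and 22.7 FPKM, while DCN had 4.18 and 12.4 FPKM. Pluripotency markers (4 genes, led by LIN28A) summed to 152 FPKM in live and 123 in processed cells, with 2 of the 4 lower and NANOG higher, at 1.27 and 7.34 FPKM. The acinar enzyme genes PNLIP and CELA3A were at or near 0 in both. The part of cell composition in the ER gene values was not tested.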

How the data were processed

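RNA was poly-A purified, sequenced as paired reads of 80 nt, and aligned by the authors to GRCh37/hg19 with STAR 2.2.0c and GENCODE annotation; Cufflinks 2.0.2 gave the deposited FPKM of each gene with a lower and an upper bound. Read counts were not used here, and filters are not given in the sources used here. Values were joined by gene identifier. Ratios are log2((processed + 1) / (live + 1)), and genes with at least 1 FPKM in at least 1 library were compared. No test was run, since each condition has 1 library. Members, roles, the wider list and the motifs were chosen with earlier results of these data known. All members were described. Within a role, the most abundant gene and the largest rise and fall were given with bounds; of the wider list, the 3 largest rises and falls at 10 FPKM or more and any gene past 2-fold. Genes overlapping members were named after their values were seen. Deposited starts count from 0 and were printed plus 1. Strand, length and gene type came from GENCODE release 44 mapped to GRCh37. Python 3.11.15, numpy 2.4.6, pandas 2.3.3, scipy 1.17.1 and matplotlib 3.10.9 were used, and the calculation was tested on simulated data. Alternatives covered pseudocount, filter, scaling and status. The summed level of acinar markers is not reported here.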

Additional observations from a re-analysis of the deposited data

How the results depend on the processing

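The count of members past 2-fold was 0 as reported, 3 with a pseudocount of 0.1 FPKM, 3 with no pseudocount and 1 (EDEM1) with FPKM rescaled to the same sum, where 20.0%, 19.3% and 19.1% of all genes were past 2-fold. The rescaling to the same sum also raised the values of both libraries. With it, 19477 genes in place of 17326 passed the filter at 1, and the pseudocount of 1 weighed less. Division of the processed FPKM by the median ratio gave 16 higher members in place of 7 and a median log2 ratio of -0.12 in place of -0.22. It also turned the log2 ratio of CALR to 0.018, of ATF4 to 6.9e-04 and of SSR2 to 0.019, and the median of the transcription factors to 6.9e-04, of ER-associated degradation to 0.030 and of the secreted stress proteins to 0.014. The other alternatives changed neither the direction of these medians nor, by over 1.5 times, these counts. The median of the sensors was -0.62 as reported and ranged from -1.02 with no pseudocount to -0.58 with the median ratio. Members with separate bounds numbered 28 to 29 under each scaling and with status OK. Over all alternatives, 269 of 279 log2 ratios of single members kept their sign. Most of these could not turn, because pseudocount, filter and status leave the sign of a ratio unchanged. Only the scalings could turn a sign, and all 10 changes came from them. No paired analysis was possible because each condition has 1 library, and no library could be left out. Low FPKM limits ERN1, whose log2 ratio was -0.62 with the pseudocount and -1.39 without it.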

Other observations

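Of the 41 members, 18 overlap another gene with at least 1 FPKM, in 21 pairs, 19 of them on opposite strands. In 5 of the 21 pairs the overlapping gene differed by more than 2-fold between the libraries, compared with 12.8% of all genes. Beside RP11-110I1.6 in HYOU1, these are RP11-498C9.2 in P4HB (18.9 FPKM in live and 75.9 in processed cells), ATP6V1C2 in PDIA6 (0.789 and 3.20 FPKM), ELL3 in PDIA3 (1.06 FPKM in live, listed at 0 in processed cells) and RP11-69L16.5 in SSR1 (2.97 and 0.796 FPKM). P4HB itself differed by -16.4 FPKM while RP11-498C9.2 differed by 57.0 FPKM. CTC-425F1.4, on the strand opposite to CALR, had 27.2 FPKM in live and 40.8 in processed cells, a difference of 13.6 FPKM beside -15.3 FPKM for CALR. These genes were chosen after their values were seen, FPKM differences of genes of unlike length are not fragment numbers, and the assignment of shared reads was not tested.

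Pseudogenes named after members were mostly near 0. Of 21 such genes for 9 members, 5 reached 1 FPKM. AC011330.6, listed as PDIA3P2 in the later annotation, had 32.2 FPKM in live and 11.8 in processed cells, whereas PDIA3P had 16.6 and 20.5 FPKM. These are 12.4% and 5.46% of the FPKM of PDIA3 for the former, and 6.43% and 9.46% for the latter. The pseudogene listed as SPCS2P4 had 14.3 and 10.5 FPKM, or 16.7% and 14.9% of SPCS2. Whether reads were shared between these copies and PDIA3 or SPCS2 was not tested.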
